A study of Ecsenius pulcher with 24 samples.

Results

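The features described here are 87 assembled transcripts of blenny skeletal muscle whose levels were lower in fish held at low oxygen than in time-matched control fish, and whose group means differed by less than a set limit after recovery. Muscle from the front of the tail, trimmed of skin, was taken from 24 *Ecsenius pulcher*, a small reef blenny, and its polyadenylated RNA was sequenced. There were 4 groups of 6 fish: acute control and acute hypoxic fish, sampled while the exposed fish were at low oxygen, and post control and post hypoxic fish, sampled after oxygen had returned and the exposed fish had recovered. Each hypoxic group had its own time-matched control group, and the low-oxygen course was modelled on records from nearby reefs. The labels give no strain, age, sex or oxygen level. A tail section holds all the cells of the muscle and its vessels and nerves, so that fewer cells of a type and less RNA per cell cannot be told apart.

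The members were chosen by measured values, from 518956 features in the table. Counts were expressed as CPM, the count scaled to a library total of 1000000, and levels are log2(CPM + 0.1). A mean of at least 1 CPM in acute controls was reached by 38994 features. In 96 of these, or 0.246%, at least 5 of the 6 acute hypoxic fish lay below the lowest acute control. The means of post control and post hypoxic fish had to differ by less than 1 log2 unit, which left 92. Dropping features among the 100 most abundant removed another 5, and the remaining 87 were ranked by the acute difference, rank 1 being the largest. Because the acute and post differences chose the members, both are given below as descriptions, and no test of them is offered as support.

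When oxygen falls, skeletal muscle of fish shifts from oxidative to anaerobic supply of ATP, and costly work such as protein synthesis and growth is often reduced. Hypoxia-inducible factors raise a set of transcripts under such conditions, while lower transcript levels can come from less transcription or faster decay. A feature here is an assembly gene, that is, a group of transcripts put together from the reads without a genome, and several features can be pieces or copies of a single gene. The files do not pair feature IDs with gene names, so that no gene, pathway or cell type is named, the muscle label could not be checked against marker genes, and no sequences are printed. Members are given by rank, and 4 of them by ID.

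Separation in the lower direction was the rarer kind in the acute fish. The same criterion turned around, with at least 5 of 6 acute hypoxic fish above the highest acute control, was met by 660 of the 38994 features, or 1.69%. In the post fish at least 5 of 6 hypoxic fish lay below the lowest control in 0.287% of 43873 features with a post control mean of at least 1 CPM, and above the highest control in 0.18%. None of the members (0 of 87) met either post criterion, a count that the limit of 1 log2 unit on the post difference holds down. Among all 38994 features the median acute difference, control minus hypoxic, was -0.19 log2 units, so that most features stood slightly higher in hypoxic fish on this scale. The members were chosen as lower, so that their going against this shift is built in.

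Most acute differences of the members were small. Control minus hypoxic ran from 0.14 to 2.86 log2 units with a median of 0.61 (quartiles 0.45 and 0.83), a median fold of 1.52. A difference of at least 1 log2 unit was seen in 11 members, and 29 members differed by less than 0.5. The members' median level was 4.53 CPM in acute controls, against 4.12 CPM for the 38994 features. There were 59 members under 10 CPM and 4 at 100 CPM or more. Together the members took 0.179% to 0.215% of the counts of an acute control library and 0.119% to 0.179% of an acute hypoxic library.

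**Figure D1:**
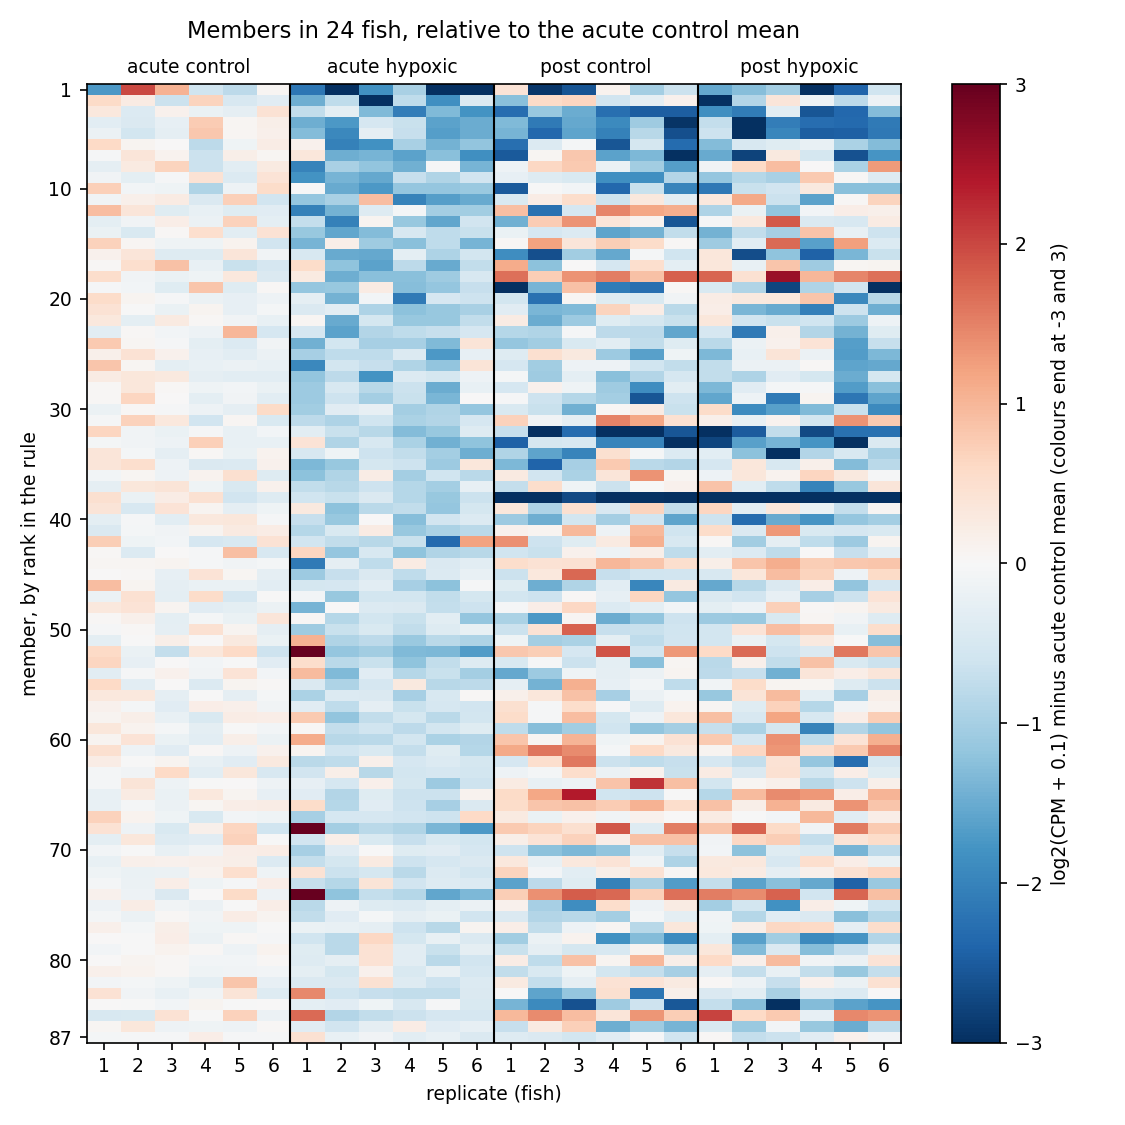
Level of each of the 87 members (rows, by rank) in each of the 24 fish (columns, by group and replicate), as log2(CPM + 0.1) minus the mean of the 6 acute controls. Acute hypoxic columns are mostly blue, rank 38 is dark blue in all 12 post fish, and ranks 52, 68 and 74 are dark red in acute hypoxic replicate 1.

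The largest acute difference belonged to TRINITY_DN24753_c2_g1 (rank 1). It lay between 0.66 and 9.76 CPM in acute controls (median 2.03) and between 0.0474 and 1.16 CPM in acute hypoxic fish (median 0.251). Acute hypoxic replicates 2, 5 and 6 held about 2 counts each, and only replicate 4 lay above the lowest control. In the post fish it spanned 0.228 to 3.23 CPM in controls (median 1.31) and 0.126 to 1.56 CPM in hypoxic fish (median 0.843). The post groups overlapped, and post control replicates 2, 3 and 5 lay within the acute hypoxic range. The acute difference was 2.86 log2 units (SE 0.78, n = 6 per group) and the post difference 0.60 (SE 0.71).

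TRINITY_DN44241_c0_g1 (rank 2) was scarcer. It ran from 0.573 to 1.58 CPM in acute controls (median 0.945) and from 0.0242 to 0.69 CPM in acute hypoxic fish (median 0.402), and replicate 6 was the fish that overlapped the controls. Post controls held 0.341 to 1.56 CPM (median 0.91) and post hypoxic fish 0.0316 to 1.25 CPM (median 0.681), which again overlapped. These levels rest on 227 counts over the acute controls and 87 over the acute hypoxic fish. The acute difference was 1.39 log2 units (SE 0.46, n = 6) and the post difference 0.64 (SE 0.57).

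In 7 members, ranks 4, 9, 14, 21, 23, 28 and 32, all 6 acute hypoxic fish lay below every acute control. Over all 38994 features 8 did so, or 0.0205%. The rule selects for this separation, so that nothing is read from the count. Rank 4 spanned 15.05 to 34.4 CPM in acute controls (median 18.98) and 6.08 to 14.1 CPM in acute hypoxic fish (median 7.23), a difference of 1.24 log2 units (SE 0.28, n = 6). Rank 14 spanned 38.2 to 74.8 CPM in acute controls (median 49.6) and 17.8 to 37.3 CPM in acute hypoxic fish (median 27.4), a difference of 0.98 (SE 0.23, n = 6). For both of these members the gap between the highest hypoxic fish and the lowest control was under 1 CPM.

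Other members near the top of the list differed in what the post fish showed. Rank 3 ran from 7.82 to 14.2 CPM in acute controls (median 10.2) and from 2.40 to 8.55 CPM in acute hypoxic fish (median 4.10), with replicate 2 as the exception. Its post levels were low in both groups, at 1.80 to 4.67 CPM in controls and 1.67 to 8.36 CPM in hypoxic fish. Rank 9 ran from 17.51 to 31.9 CPM in acute controls (median 22.3) and from 6.72 to 15.6 CPM in acute hypoxic fish (median 10.7), with no overlap. Its post levels, 6.53 to 19.7 CPM in controls and 10.5 to 40.6 CPM in hypoxic fish, spanned both acute groups, and the post difference of -0.52 log2 units (SE 0.42) had the opposite sign to the acute difference of 1.15 (SE 0.25).

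Rank 32, with no overlap at the acute point, lay at 6.82 to 12.4 CPM in acute controls and 3.17 to 6.41 CPM in acute hypoxic fish. Medians of the post groups were lower still, at 0.285 to 4.84 CPM in controls (median 1.04) and 0.537 to 4.70 CPM in hypoxic fish (median 1.46). Rank 44 lay at 5.93 to 6.79 CPM in acute controls, while acute hypoxic fish ran from 1.38 to 7.61 CPM (median 4.93). It was higher in the post fish, at 8.62 to 12.8 CPM in controls and 7.27 to 13.7 CPM in hypoxic fish, which overlapped each other.

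At the other end of the list the groups hardly differed. Rank 87 ran from 57.7 to 69.7 CPM in acute controls (median 58.8) and from 44.3 to 82.4 CPM in acute hypoxic fish (median 51.6), where replicate 1 was the highest of all 12 acute fish. Its difference of 0.14 log2 units had an SE of 0.13. The member just inside the level limit averaged 1.02 CPM in acute controls and the closest feature outside it 0.972 CPM. The member with the largest post difference, rank 64, stood at 0.91 log2 units, and the closest feature left out for its post difference stood at 1.08. The 5 abundant features left out averaged 1245 to 3383 CPM in acute controls and differed by 0.27 to 0.48 log2 units at the acute point.

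Each of the other 80 members had exactly 1 acute hypoxic fish within or above the control range, and these exceptions were spread unevenly. Replicate 1 was the exception in 26 members, replicate 3 in 22 and replicate 6 in 17. Replicates 2, 4 and 5 were the exception in 7, 6 and 2 members. Among the 660 features that met the mirrored, higher criterion, replicate 1 was the exception in 340 and replicate 3 in 9. No test compares these counts.

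**Figure D2:**
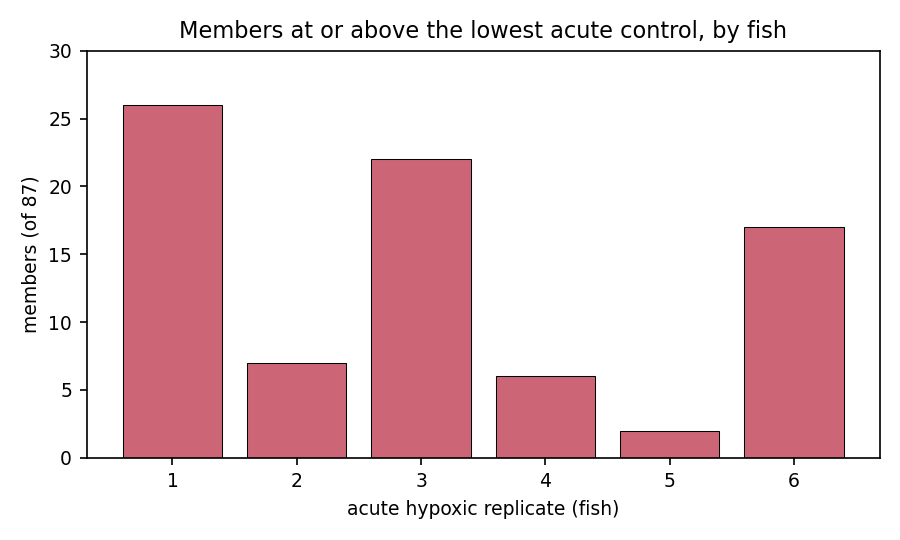
Number of the 87 members (vertical axis) for which each acute hypoxic fish (horizontal axis) lay at or above the lowest acute control. Replicate 1 has 26 and replicate 5 has 2.

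In 3 members the single exception outweighed the other fish. Rank 52 stood at 120 CPM in acute hypoxic replicate 1, whereas the other hypoxic fish were at 4.11 to 6.40 CPM and acute controls at 8.1 to 20.3 CPM. Rank 68 reached 243 CPM in the same fish, against 16.97 to 40.3 CPM in acute controls. Rank 74 reached 67.4 CPM there, against 5.34 to 10.8 CPM in acute controls. Ranks 52 and 74 are features of the same assembly component, the cluster of transcripts in which the assembler grouped them, and rank 68 is not. Ranks 52 and 68 nevertheless kept a ratio of 0.225 to 0.591 over the fish (SD within groups 0.33 log2 units). The ratio of ranks 52 and 74 varied more, from 0.352 to 2.53. The 3 members may not be separate cases, which was not tested. Without replicate 1 the acute differences of ranks 52, 68 and 74 were 1.31, 1.16 and 1.13 log2 units, in place of 0.56, 0.43 and 0.41. With all 12 acute fish the edgeR fit, which weighs mean counts, put these 3 members higher in hypoxic fish, by 0.40, 0.50 and 0.52 log2 units, and the other 84 lower.

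Over all members, each fish was summarised by the mean of the 87 log2 levels. Acute controls lay at 2.60 ± 0.0756 (SD, n = 6) and acute hypoxic fish at 1.91 ± 0.198. The highest hypoxic fish, replicate 1 at 2.21, was below the lowest control at 2.52. Post controls lay at 2.18 ± 0.165 and post hypoxic fish at 2.14 ± 0.144, a difference of 0.03 log2 units (SE 0.09). These ranges overlapped, from 2.03 to 2.48 in controls and from 1.95 to 2.35 in hypoxic fish. The very narrow spread of acute controls comes with the rule, which needs a high lowest control: the mean over all 38994 features had an SD of 0.318 in the same 6 fish.

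**Figure D3:**
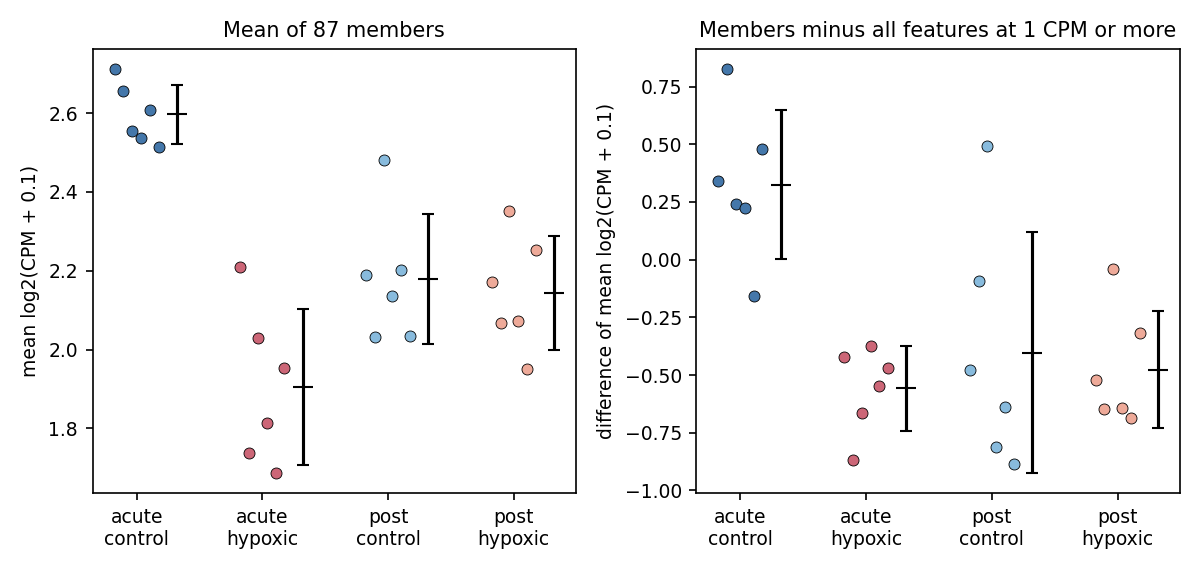
Left, the mean log2(CPM + 0.1) of the 87 members in each fish. Right, the same mean minus that of all 38994 features at 1 CPM or more in acute controls. Points are fish, and the line and bars beside them are the mean and SD of 6 fish. Acute controls are above all acute hypoxic fish in both panels, and in the right panel post controls run from -0.89, just below the lowest acute hypoxic fish, up to 0.49, within the acute control range.

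Membership changed with the scaling of the libraries. The trimmed mean of M-values (TMM) factors, which correct for a few abundant features taking up counts, ran from 0.592 to 1.18 in acute controls and from 0.778 to 1.17 in acute hypoxic fish. With TMM-scaled CPM 400 features met the rule, and 42 of the 87 members were among them. The separation criterion alone was then met by 405 of 41310 features in the lower direction and by 720 in the higher one, in place of 96 and 660 of 38994. All 87 members had a higher mean in acute controls on that scale, with a median difference of 0.81 log2 units, while the median of the 38994 features was 0.01. The mean of the members' log2 levels was then 2.87 ± 0.332 (SD, n = 6) for the acute control group and 1.97 ± 0.158 for its hypoxic counterpart. Their ranges of 2.39 to 3.40 and 1.72 to 2.16 did not overlap. The same acute fish chose the members, so that higher levels in acute controls on another scale are largely built in. Post controls lay at 2.04 ± 0.466 and post hypoxic fish at 1.99 ± 0.211 on that scale.

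The test across all features made no call among the members at the acute point. With edgeR's quasi-likelihood test over 65664 features, all 87 members passed the count filter and 0 passed an adjusted p of 0.05, against 0% of all features in the lower direction (smallest adjusted p of a member 0.307, for rank 1). At an unadjusted p of 0.05, 57 of the 87 were lower, against 1.39% of all features, a count that the selection makes high. DESeq2 called 1 member lower, rank 1 (log2 fold change -3.53, DESeq2 adjusted p 0.00293), against 0.0122% of all features. Limma voom with quality weights called 6 lower, ranks 3, 4, 5, 6, 22 and 43, against 0.0183% of all features, and rank 1 was not among them. The contrast is the one that chose the members, so that these counts carry no evidence of their own. The fitted log2 fold change of rank 1, hypoxic minus control, was -3.54 (SE 0.84) and that of rank 2 was -1.66 (SE 0.64, edgeR adjusted p 1.00).

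After recovery the members' differences were centred near 0, within the limit of 1 log2 unit that the rule had set. Control minus hypoxic was positive in 45 members and negative in 42, with a median of 0.01 log2 units and a range from -0.60 to 0.91. Over all 38994 features the median was -0.05, and 41.4% were positive. With edgeR 0 members passed an adjusted p of 0.05 for post hypoxic minus post control, against 0% of all features. At an unadjusted p of 0.05, 2 members were called, against 3.84% of all features. DESeq2 called 0 members, against 7 of 65664 features, and limma voom 0 members, against 0 features. The rule limited this contrast, so that neither the centre near 0 nor these counts are evidence of recovery.

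The limit of 1 log2 unit on the post difference was wide next to acute differences with a median of 0.61. An absolute post difference as large as the acute one was seen in 4 members, ranks 42, 62, 64 and 77, and in the first 3 of these it had the same direction. Rank 64 showed it most: it lay at 1.02 to 1.53 CPM in acute controls and 0.491 to 1.28 CPM in acute hypoxic fish, and at 0.967 to 5.53 CPM in post controls, next to 0.599 to 1.29 CPM in their hypoxic counterparts. A post difference of at least 0.5 times the acute one, in the same direction, was found in 15 members. For these, a lowering during acute hypoxia only is not what the group means show.

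**Figure D4:**
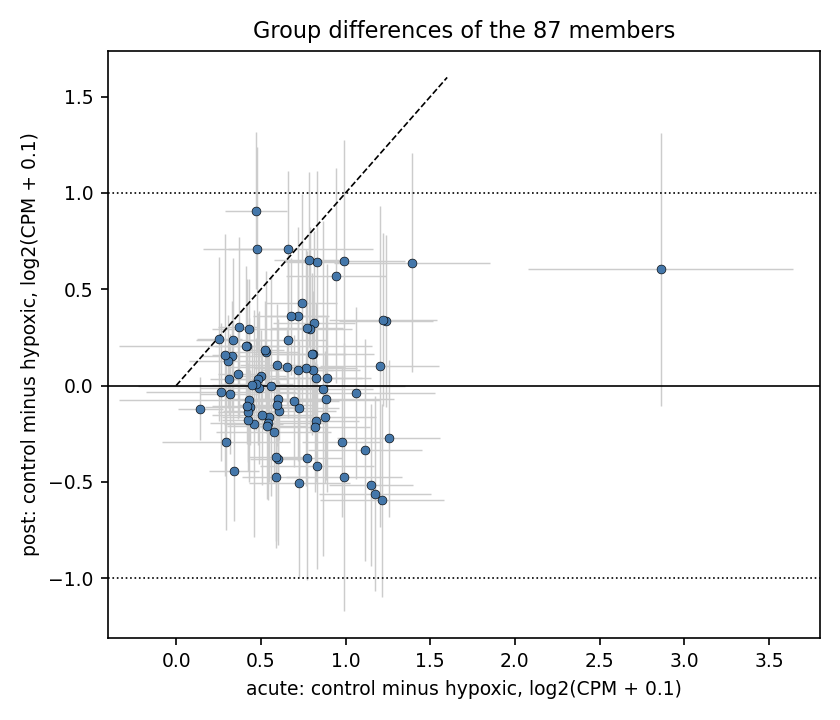
Control minus hypoxic difference of each of the 87 members at the acute point (horizontal axis) and the post point (vertical axis), both in log2(CPM + 0.1), with standard errors. Dotted lines mark the limit of 1 log2 unit in the rule, and the dashed line marks equal differences. Post differences scatter around 0 from -0.60 to 0.91.

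The change of the hypoxia effect between the time points was also fitted directly. The members' acute difference exceeded the post difference by a median of 0.60 log2 units. With edgeR 0 members passed an adjusted p of 0.05 for the difference of the effects, against 0% of all features (smallest adjusted p of a member 1.00). DESeq2 called 0 members, against 14 of 65664 features, and limma voom 0 members, against 0 features. At an unadjusted p of 0.05, 22 members were called, all lower in the acute contrast, against 3.5% of all features. The rule used both effects, so this count is a description.

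Post control fish give a second reference for these features. Their mean was below the acute hypoxic mean in 29 members, between the acute means in 32 and above the acute control mean in 26. Over all 38994 features, by contrast, 74.7% were higher in post than in acute controls on this scale (median 0.35 log2 units), whereas the members' median was -0.40. Members were required to be high in acute controls, so a lower level in another control group is partly built in. Acute and post libraries also carry names of different styles, so that time point and library series are the same division and cannot be told apart.

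In 22 members at least 5 of 6 post controls lay below the lowest acute control, against 2.31% of all features. The reverse, with at least 5 of 6 above the highest acute control, held in 5 members, against 9.21% of all features. With edgeR 19 members were called lower in post than in acute controls, against 3.8% of all features, and 0 were called higher, against 4.08%. Their log2 fold changes ran from -4.01 to -0.82. The number was 12 without acute control replicate 2, where 1670 of 67886 features were called lower. It was 30 without post control replicate 3, where 2757 of 67506 features were called lower. DESeq2 called 29 members (28 of them lower), against 3808 of 65664 features lower. Limma voom called 42 (41 lower), against 3544 of 65664 features lower. Without scaling factors 14 members were called, 3 of them higher and 11 lower. Over all 65664 features 7870 were then called higher and 1068 lower, and the median moved from 0.04 to 0.47 log2 units. Acute controls chose the members, and no support is drawn from these counts.

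Rank 38 had the largest such difference. It lay at 9.05 to 18.9 CPM in acute controls (median 13.9) and 6.16 to 10.03 CPM in acute hypoxic fish (median 8.62). Post controls held 0.347 to 1.99 CPM of it (median 1.05) and post hypoxic fish 0.253 to 1.45 CPM (median 1.19). All 12 post fish were far below all 12 acute fish, and next to that gap the acute difference of 0.72 log2 units (SE 0.21) was small. In 9 members, ranks 4, 5, 32, 33, 38, 40, 59, 73 and 84, every post fish lay below the lowest acute control. The share of all features with this pattern was not counted. The rule needs a high lowest acute control, so that this count is partly built in.

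Another 9 members, ranks 18, 31, 44, 52, 61, 66, 67, 68 and 85, had no post fish below the lowest acute control. The share of all features with no such fish was not counted either, so that nothing is read from this count. TRINITY_DN122_c1_g1 (rank 18) lay at 3.31 to 6.55 CPM in acute controls (median 4.17) and 1.56 to 5.45 CPM in acute hypoxic fish (median 1.96), where replicate 1 was the highest. Post controls held 7.54 to 15.8 CPM of it (median 12.5), and fish recovered from hypoxia held 6.21 to 27.6 CPM (median 13.5), so that all but 1 post fish were above every acute fish. TRINITY_DN7857_c0_g1 (rank 66) lay at 15.8 to 21.4 CPM in acute controls (median 18.4) and 9.25 to 26.9 CPM in acute hypoxic fish (median 12.8). Its post levels were 26.5 to 38.2 CPM in controls (median 32.1) and 20.9 to 47.2 CPM in hypoxic fish (median 33.5), and the log2 means of those groups differed by 0.0028 (SE 0.20).

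Between acute and post hypoxic fish, edgeR called 5 members. The higher ones in post hypoxic fish were ranks 18 and 66 (2 members, against 2.62% of all features), and the lower ones were ranks 38, 73 and 84 (3 members, against 3.45%). For TRINITY_DN122_c1_g1 the fitted log2 difference was 2.25 (SE 0.33) with an edgeR adjusted p of 1.00e-04, and for TRINITY_DN7857_c0_g1 it was 1.00 (SE 0.26) with an edgeR adjusted p of 0.0201. The call for TRINITY_DN122_c1_g1 held in 32 of 32 alternatives. The call for TRINITY_DN7857_c0_g1 held in 29 of 32 and was lost without replicate 3 or 5 of the acute hypoxic group or replicate 5 of the post hypoxic group, with an edgeR adjusted p of up to 0.0601. The 3 lower members were also among the 19 called lower in controls. Leaving out acute hypoxic replicate 1 gave 9 calls in place of 5, against 4599 in place of 3981 over all features. Leaving out replicate 3 or 6 of that group gave 3, against 2552 and 2590 over all features. Without its replicate 5 there were 2, against 2477. Leaving out replicate 1 of the post hypoxic group gave 10 calls, against 4151 over all features. Without replicate 5 of the post hypoxic group there were 2, against 2631. DESeq2 called 11 members, against 6531 of all 65664 features, and limma voom 21, against 7092. Acute hypoxic fish chose the members as low, so higher post levels are partly built in.

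Variation between fish of a group was smaller than that of all features in acute controls and larger in post hypoxic fish. These spreads were not tested. The smaller spread in acute controls is partly built in, since the rule needs a high lowest control. The median within-group SD of the log2 level was 0.34 in acute controls, against 0.52 for the 38994 features. It was 0.50 in acute hypoxic fish (all features 0.49) and 0.65 in post controls (all features 0.66). After hypoxia and recovery it was 0.68, against 0.50 for all features. Counts that are not whole arise where reads were shared out among features, and 13.0% of the members' nonzero values were of this kind, against 9.35% for the 38994 features. Only 1 of the members' values was 0, in post hypoxic replicate 3.

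The 87 members fell into 83 assembly components and 79 larger clusters of the assembly, so that they are not 87 independent transcripts. Sharing a cluster with another member was found for 15 members in 7 clusters. The components of 31 members also held 35 other features at 1 CPM or more in acute controls. Of these, 27 had a higher mean in acute controls, and the median difference over all 35 was 0.19 log2 units. Among all 38994 features, 24.9% had a higher mean in acute controls. Of the 35, 0 met the separation criterion. The 35 can be pieces of the members' own genes and were measured in the fish that chose the members. Their direction is therefore partly built in, and no support is drawn from it. When counts were summed per component, 78 of the 83 components were lower in acute hypoxic fish, and 59 met the rule. These sums hold the members' own counts, so that lower sums are largely built in.

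Some pairs of members kept a similar ratio from fish to fish within the groups, which the rule does not ask for. Of 3741 pairs of members, 6 had a log2 ratio with an SD under 0.25 within groups, against a median of 0.83 over all pairs, and 3 of the 6 were within a cluster. Ranks 45 and 50 stood closest, with a ratio of 0.943 to 1.08 (SD 0.05 log2 units), although their IDs place them in different clusters. Rank 45 ran from 219.2 to 352 CPM in acute controls, 124 to 226 CPM in acute hypoxic fish, 164 to 864 CPM in post controls and 189 to 499.97 CPM in fish that had recovered from hypoxia. Post control replicate 3 held the highest level in each of them. Ranks 4 and 5, from the same cluster, kept a ratio of 0.886 to 1.28 while rank 4 itself ran from 1.83 to 34.4 CPM across the fish. Ranks 9 and 14, also from the same cluster, kept a ratio of 0.286 to 0.543. Both members of each pair are counted in every count above, so that those counts hold some near-duplicates. The pairs were chosen for mention after their values were seen.

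**Figure D5:**
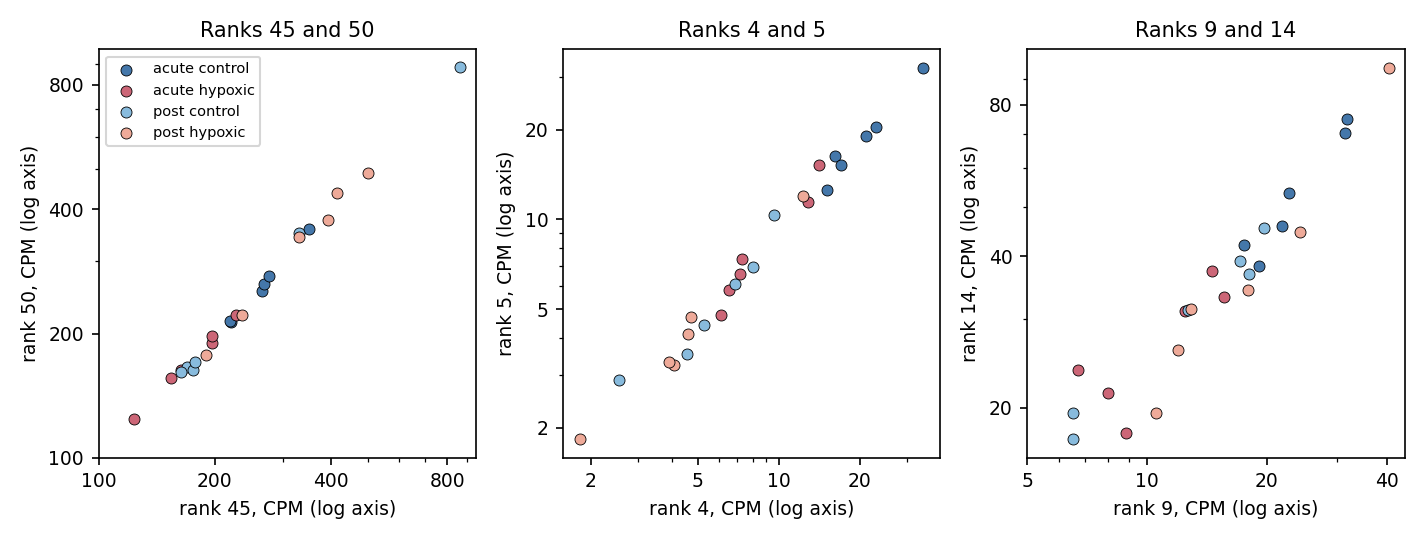
CPM of paired members in each of the 24 fish, on log axes, with colours for the 4 groups. In each panel the fish lie along a line, and for ranks 45 and 50 the ratio stays between 0.943 and 1.08.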

How the data were processed

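Polyadenylated RNA of tail muscle from 24 fish was sequenced, 1 library per fish. The authors deposited a table of estimated counts per assembly gene, unscaled between libraries, per the file headers. Trimmomatic, RSEM and kallisto are listed, without versions or roles, per the submitters' processing notes. Assembly settings were not given in the labels. Library totals were 31085706 to 43603403 counts. Columns were matched to fish by library name, and groups and replicate numbers came from the titles.

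CPM used plain column sums. Estimated counts were rounded for the tests. edgeR (version 4.0.16) used filterByExpr (minimum count 10, minimum total count 15), TMM factors, 4 group means over all 24 libraries and Benjamini-Hochberg adjustment over all features tested. It was also run on simulated data in which every planted change was larger than the members' median fold. That run does not show whether changes of the members' usual size are found. Alternatives were DESeq2 (version 1.42.0), limma voom (version 3.58.1), other scalings and filters, a replicate block, fits restricted to the compared groups, and leaving out single libraries. Plots were made with matplotlib (version 3.10.9).

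Members and tests were chosen with earlier results of these data known. IDs are given for ranks 1 and 2, and by rule for members called higher in post than in acute controls, of which there were 0; the IDs of ranks 18 and 66 were added after their values were seen. Marker lists needed gene names and were not used. Same-numbered control and hypoxic fish correlated over 0.1 in 4 of 12 pairs, and the numbers were therefore treated as names only. Over 60 pairs of libraries within groups, the chi-square per feature was 29.6 to 348, so none were repeats of a library.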

Additional observations from a re-analysis of the deposited data

Results flagged for a closer look

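For 23 members, namely ranks 1 to 10 and 13 others described above, 92 group values were examined, and 10 held a fish far from the other 5 of its group. Chance gives about 1 in 20, and some of the 13 were picked for description because of such a fish. Acute hypoxic replicate 1 was the fish in 5 of the 10. It held 120 CPM of rank 52, 243 CPM of rank 68 and 67.4 CPM of rank 74, where its group mates held 4.11 to 6.40, 7.82 to 14.9 and 2.38 to 4.35 CPM. It also held 2.00 CPM of rank 7 and 3.78 CPM of rank 10, where its group mates held 0.358 to 0.589 and 1.09 to 1.71 CPM. An acute control stood high in 3 members. These were replicate 1 for rank 32 (12.4 CPM, the others 6.82 to 7.73), replicate 2 for rank 64 (1.53 CPM, the others 1.02 to 1.16) and replicate 4 for rank 87 (69.7 CPM, the others 57.7 to 58.8). Post hypoxic replicate 4 stood low for rank 74, at 4.83 CPM against 13.6 to 24.9 CPM. Post hypoxic replicate 1 stood low for TRINITY_DN44241_c0_g1, at 0.0316 CPM, which is 1 count, against 0.478 to 1.25 CPM. Over all 348 group values of the 87 members, 37 held such a fish, and in 11 of these it was acute hypoxic replicate 1. The rule allows 1 acute hypoxic fish per member to lie outside the others.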

How the results depend on the processing

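The 87 features meeting the rule became 400 with TMM-scaled CPM, 7 when all 6 acute hypoxic fish had to lie below the controls, and 87 to 264 leaving out a library, where fewer fish have to separate. It was 247 and 264 without acute hypoxic replicates 1 and 3, and 181, 154, 154, 153 and 133 without acute control replicates 6, 2, 4, 5 and 1. It was 154, 153 and 135 without acute hypoxic replicates 6, 2 and 5. The median acute difference of 0.61 became 0.81 with TMM scaling and 0.84 as fitted by edgeR, and was 0.58 to 0.71 leaving out a library. This median was 0.46 with 1 added to CPM in place of 0.1, 0.54 with 0.5 added, and 0.53 with counts summed per component. Acute calls among the members, all lower, went from 0 to 9 with no count filter, 1 with DESeq2 and 6 with limma voom. Over all features 364 of 487995 were called lower with no count filter, 8 of 65664 with DESeq2 and 12 with limma voom. Leaving out any library gave 0 calls among the members. For the difference between the acute and post effects, the 0 calls became 3 with no count filter, where 915 of 487995 features were called. Post calls among the members were 0 in every alternative run. Over all features post calls reached 1263, with no count filter. The 19 calls between the control groups became 31 at an adjusted p of 0.1, 29 with no count filter or DESeq2, 42 with limma voom and 12 to 30 leaving out a library. Over all features the 5177 calls became 8592 at an adjusted p of 0.1, 8281 with no count filter, 8044 with DESeq2 and 6917 with limma voom. They were 3461 to 6117 leaving out a library. The 5 calls between the hypoxic groups became 11 at an adjusted p of 0.1 or with DESeq2, 8 without scaling factors, 14 with no count filter, 21 with limma voom and 2 to 10 leaving out a library. Calls over all features moved as well, from 3981 to 6671 at an adjusted p of 0.1, 6531 with DESeq2 and 7092 with limma voom. They were 3040 without scaling factors, 6388 with no count filter and 2477 to 4740 leaving out a library. With the replicate block the members' calls were 0 at the acute point, 20 between control groups and 6 between hypoxic groups. Over all 65664 features they were 0, 4241 and 3416. The log2 fold change of rank 1 ranged from -4.46 to -2.65 over 32 alternatives. For the changes of scaling, filter and tool the cause was not tested. At these depths, a low member such as rank 2 rests on 227 counts over 6 acute control libraries.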
